A study of Mus musculus with 13 samples.

Results

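RNA sequencing (RNA-Seq) of the midbrain was examined for 7 genes of the acute-phase response, Lcn2, Saa3, Steap4, A2m, Cp, Hp and Slc10a6, out of 49315 genes counted in each library. These genes were chosen on their measured levels across the same 13 libraries, so their levels and fold changes are given as a description, without a p-value for any of them. Counts of members called are set beside the share of all genes called, and nothing is read from them in any comparison. All 7 were among the 19360 genes that passed the filter on low counts, which was at least 10 counts in at least 3 libraries. Midbrains came from male Ripk3fl/fl mice, 8 to 12 weeks old and backcrossed to C57BL/6J, 3 days after the last of 5 daily injections of MPTP (20 mg/kg) or saline. MPTP is a neurotoxin that kills dopaminergic neurons. Cre+ mice carried Aldh1l1Cre, a tamoxifen-inducible Cre driven by an astrocyte promoter that deletes Ripk3, a kinase of necroptotic and inflammatory signaling, and their Cre- littermates did not. All mice, controls included, had received tamoxifen (60 mg/kg on 5 days). There were 3 Cre- and 3 Cre+ mice with saline (Cre- Saline, Cre+ Saline) and 3 Cre- and 4 Cre+ mice with MPTP, each a distinct animal, and the comparisons ask how MPTP and astrocytic Ripk3 each relate to the levels of these genes.

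The acute-phase response is a change in secreted proteins that follows infection or tissue damage. It is best known in the liver, where IL-6 drives it through STAT3, and IL-1 and TNF through NF-kappaB, with C/EBP factors acting alongside both. In the brain, reactive astrocytes, endothelial cells and infiltrating leukocytes can make several of the same proteins, and Lcn2 is widely used as a marker of reactive astrocytes. Lcn2 encodes lipocalin 2, a secreted protein that binds iron-loaded siderophores and is also stored in neutrophil granules. Hp encodes haptoglobin, which binds free hemoglobin, and Cp encodes ceruloplasmin, a copper-containing ferroxidase. Steap4 encodes a membrane metalloreductase that acts on iron and copper. Saa3 encodes a serum amyloid A made mainly outside the liver, and A2m encodes alpha-2-macroglobulin, which traps proteases. Slc10a6 encodes a sodium-dependent transporter of sulfated steroids.

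Promoters were read from RefSeq (GRCm38.p6, 250 bases before to 50 after a gene's start) because C/EBP, STAT and NF-kappaB factors are the known regulators of this gene group. Promoters of 5 of the 7 members were held there, those of Lcn2, Saa3, Steap4, Cp and Slc10a6. Both strands were searched for a STAT motif (TTCNNNGAA), a C/EBP motif (TTNNGCAA) and the NF-kappaB consensus. Among all 32851 promoters of 300 bases, 8.30% held the STAT motif, 10.8% the C/EBP motif and 4.51% the NF-kappaB consensus. The C/EBP motif was found for Lcn2, Saa3, Steap4 and Cp. For Cp it lay in the promoter window from 19956999 to 19957298, while another Cp window, from 19956804 to 19957103, held no match to any motif. Steap4 also held the STAT motif and 2 matches to the NF-kappaB consensus, and Slc10a6 held none of the 3. A match describes letters in a sequence and says nothing of binding. The matched stretches are shown 5′ to 3′ on the gene's strand with the matches in capitals, whole up to the first annotated exon for Saa3 and Steap4, and with 10 bases on either side of the match for Lcn2 and Cp, whose match lies inside an annotated exon. In Steap4 the capitals are, in order, the pair of NF-kappaB matches, the STAT motif and the C/EBP motif, and in the other 3 they are the C/EBP motif.
Saa3, chr7:46715701-46715926, minus strand: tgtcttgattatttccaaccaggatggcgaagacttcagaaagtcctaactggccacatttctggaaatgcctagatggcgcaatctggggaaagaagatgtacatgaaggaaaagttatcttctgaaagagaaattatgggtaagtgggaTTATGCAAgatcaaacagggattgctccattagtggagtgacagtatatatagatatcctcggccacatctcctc
Steap4, chr5:7960222-7960456, plus strand: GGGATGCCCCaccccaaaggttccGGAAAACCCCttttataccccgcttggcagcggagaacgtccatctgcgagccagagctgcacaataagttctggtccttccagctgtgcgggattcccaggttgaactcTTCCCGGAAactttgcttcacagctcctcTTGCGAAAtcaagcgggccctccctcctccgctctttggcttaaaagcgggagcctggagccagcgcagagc
Lcn2, chr2:32387938-32387965, minus strand: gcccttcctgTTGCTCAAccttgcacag
Cp, chr3:19957169-19957196, plus strand: ttagttactcTTTTGCAAcattaaattg

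The libraries held 11489150 to 29397278 counts (median 24907639), and levels are given as CPM, the counts per 1000000 of a library size that was scaled by trimmed mean of M values (TMM). Cre- MPTP mouse 1 stood apart. It had the fewest counts, a TMM factor of 0.804 against 1.01 to 1.04 in the other 12 libraries, and summed astrocyte markers of 1344 CPM against 1912 to 2653 CPM. In that library 21101 genes had a count, against 25432 to 27186 in the other 12. Dopaminergic neuron markers, which define the tissue, summed to 244 to 309 CPM in Cre- Saline and 250 to 281 CPM in Cre+ Saline mice. With MPTP they summed to 171 (mouse 1), 301 and 343 CPM in Cre- mice and to 240 to 317 CPM in Cre+ mice. With MPTP 0 of these 4 markers were called in either genotype. Ripk3 had 4 to 40 counts per library and overlapped between genotypes with either treatment, so in whole midbrain it did not check the genotype of a mouse. In whole tissue, fewer cells of a type and less RNA per cell cannot be told apart.

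Without MPTP, Cp and A2m were the abundant members and the other 5 were scarce. Scaled by exon length so that genes can be compared, the level in Cre- Saline mice was 2.35 CPM per kilobase for Cp and 1.67 for A2m, while the other 5 lay between 0.0182 (Slc10a6) and 0.260 (Lcn2). The saline groups of both genotypes overlapped for all 7 members. The log2 fold change of Cre+ against Cre- with saline ran from -0.59 for Hp to 0.61 for Saa3, leaving out Slc10a6, which had 3 counts over the Cre- and 5 over the Cre+ Saline group. By edgeR's quasi-likelihood test, 0 of the 7 were called (Benjamini-Hochberg adjusted p under 0.05), as were 0% of all genes tested, and 0 of the 7 had an unadjusted p under 0.05. DESeq2 and limma voom also called 0 of the 7.

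With MPTP, each of the 7 members was higher in every Cre- mouse than in every Cre- Saline mouse. Such a separation was seen in 7.11% of all genes tested. By edgeR, 7 of the 7 were called higher in Cre- mice, where 2.23% of all genes tested were called higher and 0.956% lower. With 1 library left out, 5 to 7 of the 7 were called, where the call of Hp was lost without Cre- Saline mouse 1 and that of Slc10a6 without any 1 of the Cre- Saline mice or without Cre- MPTP mouse 2 or 3. The members were picked for this pattern. Slc10a6 reached 10 counts in 3 libraries only through the Cre- MPTP mice, so nothing is read from its calls. The members are described below by role, with values in order of mouse number within each group.

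Lcn2 (ENSMUSG00000026822, GRCm38 chromosome 2, 32384633 to 32388252, minus strand) was the most abundant member after MPTP. It had 0.159, 0.898 and 0.986 CPM in Cre- Saline and 0.788, 0.610 and 1.22 CPM in Cre+ Saline mice. It had 630.1, 460.4 and 595 CPM in Cre- MPTP mice. In Cre+ MPTP mice it had 25.8, 153, 15.4 and 20.3 CPM. Each MPTP library lay above each saline library, and the Cre+ MPTP mice lay below the Cre- MPTP mice without overlap. The log2 fold change with MPTP was 9.67 (SE 1.09) in Cre- and 5.93 (SE 0.933) in Cre+ mice, and Cre+ mice were lower than Cre- mice after MPTP by a log2 fold change of -3.39 (SE 0.711). Without Cre+ MPTP mouse 2, whose level was 5.93 times that of the next mouse, the Cre+ response was 4.54 and the genotype difference -4.77.

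Hp (ENSMUSG00000031722, chromosome 8, 109575128 to 109579172, minus strand) had 0.278, 0.586 and 0.329 CPM in Cre- Saline mice. It had 0.315, 0.244 and 0.228 CPM in Cre+ Saline mice. In Cre- MPTP mice it had 15.8, 2.34 and 7.72 CPM, the widest relative spread of the 7 members in that group (coefficient of variation 78.7%, against 14.98% to 44.6% for the other 6). In Cre+ MPTP mice it had 0.111, 1.01, 0.665 and 0.229 CPM and overlapped the saline mice. The log2 fold change with MPTP was 4.40 (SE 0.777) in Cre- and 0.86 (SE 0.792) in Cre+ mice. Cre+ differed from Cre- after MPTP by -4.13 (SE 0.688). Mouse 1 of the Cre- MPTP group weighed on these values, and without it they were 3.66 in Cre- mice and -3.40 between genotypes.

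Cp (ENSMUSG00000003617, chromosome 3, 19957054 to 20009145, plus strand) shares exon bases with Hps3 on the opposite strand, and the strand setting of the counting is not given in the sources used here. It was present at 20.1, 24.4 and 23.0 CPM in Cre- Saline and at 35.4, 21.4 and 25.8 CPM in Cre+ Saline mice. After MPTP it reached 101, 192 and 199 CPM in Cre- and 33.5, 85.5, 35.6 and 42.5 CPM in Cre+ mice. Every Cre- MPTP mouse lay above every other mouse, while the Cre+ MPTP range met the Cre+ Saline range at its low end. Its log2 fold change was 2.87 (SE 0.379) in Cre- and 0.84 (SE 0.339) in Cre+ mice, and 0.43 in Cre+ mice without mouse 2.

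Steap4 (ENSMUSG00000012428, chromosome 5, 7960457 to 7982213, plus strand), whose promoter holds all 3 motifs, had 0.273 to 0.675 CPM in the 6 saline mice. It had 12.1, 25.5 and 16.4 CPM in Cre- MPTP mice and 0.628, 6.77, 1.11 and 3.82 CPM in Cre+ MPTP mice. The lowest Cre+ MPTP mouse was barely above the highest Cre+ Saline mouse (0.591 CPM), so the Cre+ groups were separate by a narrow margin. With MPTP the log2 fold change was 5.44 (SE 0.821) in Cre- and 2.60 (SE 0.736) in Cre+ mice, and 1.88 in Cre+ mice without mouse 2.

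Saa3 (ENSMUSG00000040026, chromosome 7, 46711998 to 46715700, minus strand) had 0, 0.273 and 0.329 CPM in Cre- Saline and 0, 0.407 and 0.533 CPM in Cre+ Saline mice. In the libraries with 0 counts, the limit of 3 counts that a count of 0 allows was 0.119 and 0.118 CPM. It had 317, 189.9 and 213 CPM in Cre- MPTP mice and 2.70, 66.7, 5.01 and 1.30 CPM in Cre+ MPTP mice. All MPTP mice lay above all saline mice, and Cre+ MPTP mouse 2 had 13.3 times the level of the next mouse of its group. The log2 fold change was 10.16 (SE 1.74) in Cre- mice, from 16 counts over the saline group to 14155. In Cre+ mice it was 5.88 (SE 1.497), and 3.23 without mouse 2.

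A2m (ENSMUSG00000030111, chromosome 6, 121635376 to 121679227, plus strand) was the steadiest member in Cre- MPTP mice, with a coefficient of variation of 14.98%. It had 11.6, 12.9 and 10.6 CPM in Cre- Saline and 19.5, 10.7 and 17.4 CPM in Cre+ Saline mice. It had 81.4, 109 and 90.5 CPM in Cre- MPTP mice and 22.2, 43.7, 20.4 and 17.0 CPM in Cre+ MPTP mice. The Cre- MPTP mice stood above all others, and the Cre+ MPTP mice overlapped the Cre+ Saline mice. With MPTP the log2 fold change was 3.00 (SE 0.342) in Cre- and 0.70 (SE 0.303) in Cre+ mice, and 0.33 in Cre+ mice without mouse 2.

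Slc10a6 (ENSMUSG00000029321, chromosome 5, 103605711 to 103629403, minus strand) was near absent with saline, with 2, 0 and 1 counts in Cre- and 0, 0 and 5 counts in Cre+ mice. It had 19, 120 and 81 counts in Cre- MPTP mice (2.06, 4.75 and 2.67 CPM). In Cre+ MPTP mice it had 1, 30, 0 and 10 counts (0.0370, 1.68, 0 and 0.382 CPM). The Cre- MPTP mice were separate from all others, and 30 of the 41 Cre+ MPTP counts came from mouse 2. Per count sequenced, the ratio of MPTP to saline was 88.5 in Cre- mice (95% counting interval 29.9 to 433) and 6.67 in Cre+ mice (2.64 to 21.6). These intervals and the limits of a count of 0 cover counting error only.

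**Figure D1:**
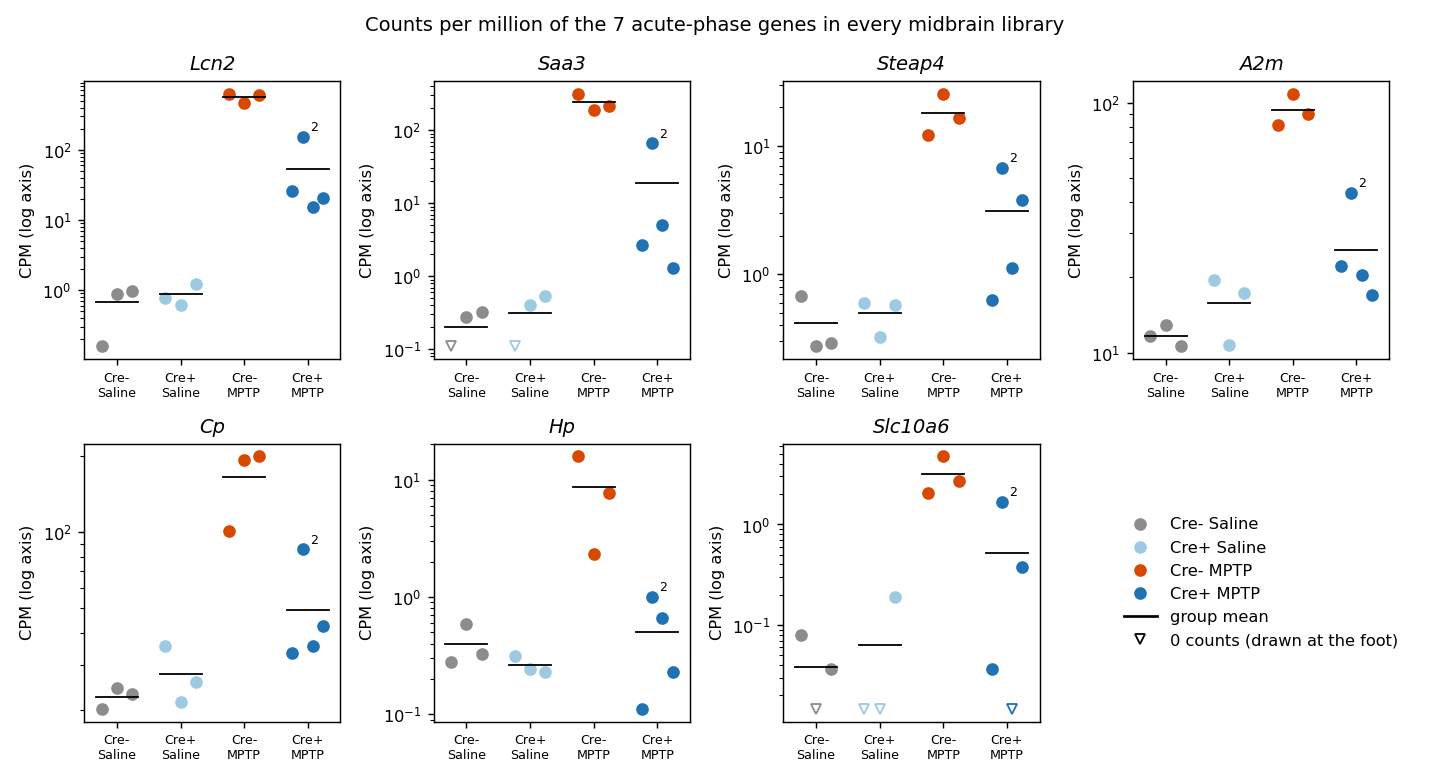
Level of each member in every library, in CPM on a log axis, with 1 point per mouse and the 4 groups side by side. The Cre- MPTP points lie above all other points in each panel, and the top Cre+ MPTP point, mouse 2 in all 7 panels, reaches 153 CPM for Lcn2 and 66.7 CPM for Saa3.

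Ordered by level per kilobase of exon in Cre- MPTP mice, Lcn2 stood at 214 ± 34.1 CPM per kilobase (SD, n = 3) and Saa3 at 92.0 ± 25.9, with no overlap between them. Cp at 17.1 ± 5.72 and A2m at 13.3 ± 2.00 followed and overlapped each other. Steap4 at 5.71 ± 2.16, Hp at 5.37 ± 4.23 and Slc10a6 at 1.49 ± 0.665 came last, and each overlapped its neighbor in this order. Cp and A2m, highest with saline, thus came after Lcn2 and Saa3 with MPTP. In Cre+ MPTP mice the levels per kilobase were 20.5 ± 25.4 for Lcn2 (n = 4), 7.26 ± 12.2 for Saa3, 5.15 ± 2.56 for Cp and 3.68 ± 1.73 for A2m, and the SD exceeded the mean for Lcn2 and Saa3.

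In Cre+ mice, MPTP was followed by a smaller rise of the group mean. Lcn2, Saa3 and Steap4 were higher in every Cre+ MPTP mouse than in every Cre+ Saline mouse, which held for 5.06% of all genes tested, and the other 4 members overlapped. By edgeR's quasi-likelihood test 0 of the 7 were called, as were 0% of all genes, while 5 of the 7 had an unadjusted p under 0.05. DESeq2 called 3 of the 7 and limma voom 1, and edgeR called 1 without Cre+ MPTP mouse 2. Expressed as a share of the rise in mean CPM that Cre- mice showed, the Cre+ rise was 2.92% for Hp, 7.77% for Saa3, 9.42% for Lcn2, 12.2% for A2m, 14.7% for Steap4, 14.8% for Slc10a6 and 15.4% for Cp. A single mouse carried much of it. Cre+ MPTP mouse 2 was the highest of its group for 7 of the 7 members, and without it the shares ran from 0.880% (Hp) to 7.69% (Steap4).

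**Figure D2:**
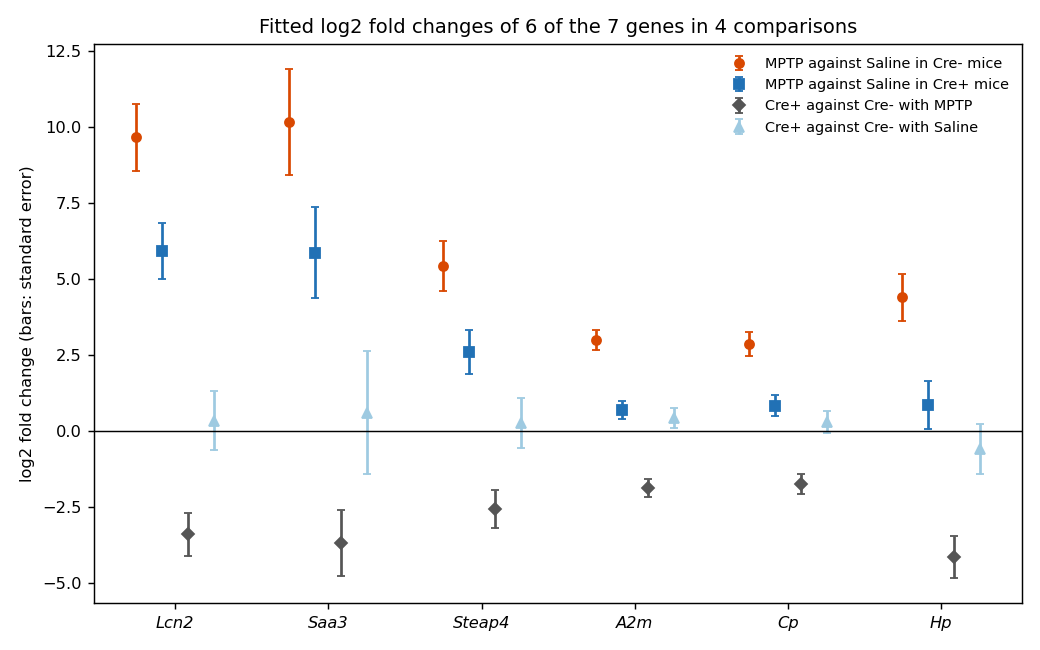
Log2 fold changes of 6 members, side by side with error bars of 1 SE. The comparisons are MPTP against saline in Cre- and in Cre+ mice, and Cre+ against Cre- mice with MPTP and with saline. Slc10a6 is left out because its Cre- Saline group held 3 counts. For each of the 6 genes the MPTP response of Cre+ mice lies below that of Cre- mice.

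After MPTP, each of the 7 members was lower in all 4 Cre+ mice than in all 3 Cre- mice, a separation that 5.07% of all genes tested showed. The log2 fold changes of Cre+ against Cre- were -1.74 (SE 0.331) for Cp, -1.86 (SE 0.297) for A2m, -2.57 (SE 0.625) for Steap4, -2.69 (SE 1.01) for Slc10a6 and -3.67 (SE 1.08) for Saa3, beside those of Lcn2 and Hp above. By edgeR, A2m, Cp, Hp and Lcn2 were called lower, 4 of the 7, where 1.03% of all genes were called lower and 0.517% higher. All 4 calls ended when the 2 MPTP groups were fitted alone and when Cre+ MPTP mouse 1 or 3 was left out, those of Lcn2 and Cp also ended without mouse 4, and 7 of the 7 were called without mouse 2. Without mouse 2 the difference was -3.28 for Steap4, -4.44 for Slc10a6 and -6.31 for Saa3. The difference between the responses of both genotypes (the interaction) was negative for all 7 members, from -2.03 for Cp to -4.29 for Saa3. It was called for 0 of the 7 and for 0.0103% of all genes, with 5 of the 7 at an unadjusted p under 0.05, 3 called by DESeq2 and 4 by limma voom. Without Cre- MPTP mouse 1 the interaction was called for 2 of the 7 and without Cre+ MPTP mouse 2 for 4. Without Cre+ MPTP mouse 2 it was -3.56 for Steap4, -5.12 for Lcn2, -5.13 for Slc10a6 and -6.93 for Saa3, and without Cre- MPTP mouse 1 it was -2.81 for Hp. For Slc10a6 the interaction rested on Cre+ Saline mouse 3 and was 0.37 without it.

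The members, picked for their levels across these libraries, rose and fell together over the 4 groups, so their correlations are a description only. Over 13 libraries in 4 groups, Pearson's r of log2 CPM between members lay between 0.767 and 0.975 for the 21 pairs, and between 0.0755 and 0.882 once the group means were removed. In Cre- MPTP mice, mouse 1 was the highest for Lcn2, Saa3 and Hp and the lowest for Steap4, A2m, Cp and Slc10a6. Of all other genes, those whose pattern over the 13 libraries was most like that of Lcn2 were Sele (E-selectin of activated endothelium, r = 0.98), Hif3a (0.975), Fcgr2b (0.974), Gpr179 (0.971) and Ms4a6d (0.969). Sele went from a mean of 0.0365 CPM in Cre- Saline to 9.69 CPM in Cre- MPTP and 1.58 CPM in Cre+ MPTP mice. Those most like Saa3 were Gpr84 (0.969), Aire (0.961), Serpina3n (0.957), Slfn4 (0.955) and Pla1a (0.951). Those most like the mean of the 7 members were Msr1, Cxcl1, Icam1, Serpina3n, Gpr84, Cybb, Igsf6, Mmp3, Aire and Cd14 (0.983 to 0.971), among them a neutrophil-attracting chemokine (Cxcl1), a leukocyte adhesion molecule (Icam1) and a scavenger receptor of macrophages (Msr1). Cxcl1 had a mean of 0.116 CPM in Cre- Saline, 48.0 CPM in Cre- MPTP and 2.67 CPM in Cre+ MPTP mice. The lists depended on the measure, since Spearman's rho shared 0 of 5, 2 of 5 and 0 of 10 genes with them. Once the group means were removed, 0 of 5, 0 of 5 and 2 of 10 genes were shared, so the likeness lay largely in the differences between groups.

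Related genes were taken from 6 lists of 84 genes, of which 62 passed the filter on low counts. The lists were chosen with earlier results of these data known, so the calls, medians and adjusted p-values given for them are a description only. In Cre- mice MPTP was followed by calls in 26 of the 62, 24 higher and 2 lower, where 2.23% of all genes tested were called higher and 0.956% lower. The median log2 fold change was 0.90 against 0.025 over all genes tested. The 24 include Tnf, which passed the filter only with Cre- MPTP mice 2 and 3 both present, so nothing is read from its call. After MPTP, Cre+ mice were called lower than Cre- mice in 18 of the 62 and higher in 1, where 1.03% of all genes tested were called lower and 0.517% higher. The median was -0.88 against 0.030 over all genes. Both comparisons share the Cre- MPTP mice. The response within Cre+ mice gave 0 calls by edgeR, with 10 genes at an unadjusted p under 0.05, 0 called by DESeq2 and 3 by limma voom. The genotypes under saline gave 0 calls and 0 genes at an unadjusted p under 0.05, and also 0 by DESeq2 and limma voom. The interaction gave 0 calls by edgeR, with 26 genes at an unadjusted p under 0.05, 12 called by DESeq2 and 20 by limma voom. The calls between genotypes after MPTP were fragile, since 1 of the 19, Tnfrsf1a, held with any 1 library of the 2 groups compared left out. Without Cre+ MPTP mouse 1, 3 or 4 there were 2, 2 and 5 calls, and fitting the 2 MPTP groups alone gave 0. In Cre- mice 14 of the 26 calls held with any 1 library of the 2 groups compared left out. The other 12 were lost without 1 or more of the Cre- Saline libraries. Adjusted p-values below come from this edgeR test and were adjusted by Benjamini-Hochberg over all genes tested.

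Among the other acute-phase proteins, 13 of 24 passed the filter, 9 rose with MPTP in Cre- mice and 0 fell. Serpina3n, a serine protease inhibitor of reactive astrocytes, had 16.2 to 19.6 CPM in Cre- Saline and 290.7, 492 and 584 CPM in Cre- MPTP mice. Its Cre+ MPTP mice had 38.5, 170.5, 40.0 and 24.1 CPM, again with mouse 2 on top. Its log2 fold change was 4.66 (SE 0.655, edgeR adjusted p = 0.00232) in Cre- mice and -2.74 (adjusted p = 0.0278) between genotypes after MPTP, and -3.74 without Cre+ MPTP mouse 2. Lrg1, a leucine-rich glycoprotein induced by the same cytokines, rose by 5.09 (edgeR adjusted p = 0.00704), but had 130.2 CPM in Cre- MPTP mouse 1 and 12.8 and 15.4 CPM in the others, and rose by 3.20 without mouse 1. The complement component C3 rose by 3.67 (edgeR adjusted p = 0.00338), factor B (Cfb) by 2.38 (0.0027) and the C1 inhibitor gene Serping1 by 1.49 (0.00945). The lipopolysaccharide-binding protein gene Lbp rose by 2.36 (edgeR adjusted p = 0.00641), the pentraxin gene Ptx3 by 3.69 (0.0321), and the angiotensinogen gene Agt by 0.76 (0.0284). Saa1, a paralog of Saa3 known from the liver, rose by 4.57 (edgeR adjusted p = 0.0255, and 5.38 without Cre- Saline mouse 2), and Saa2 had 2.67 (0.198); their sequences are nearly identical, so the split of reads between them is uncertain. Between genotypes after MPTP, Serpina3n, Lrg1, C3, Ptx3, Lbp and Serping1 were lower in Cre+ mice, with log2 fold changes of -1.12 (Serping1, edgeR adjusted p = 0.0473) to -3.53 (Ptx3, 0.0396). Without Cre- MPTP mouse 1, Ptx3 had 1.91 in Cre- mice, and the genotype calls of Lrg1 (-1.54) and Ptx3 (-1.76) were lost. Il1rn, the antagonist of the IL-1 receptor, had 0 counts in all 6 saline mice. It had 18, 84 and 75 counts in Cre- MPTP and 0, 32, 0 and 1 counts in Cre+ MPTP mice. Il1rn was not called (edgeR adjusted p = 0.126), and it passed the filter only through the Cre- MPTP mice, so nothing is read from its test.

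The negative acute-phase proteins, which fall in the liver during the response, gave 1 call among the 4 of 6 that passed the filter. Trf, encoding transferrin, fell by 0.62 on the log2 scale in Cre- mice (edgeR adjusted p = 0.0192). Trf is made in the brain largely by oligodendrocytes, whose 4 markers summed to 10200 to 13742 CPM in saline mice, 6826 to 9284 CPM in Cre- MPTP and 8462 to 11544 CPM in Cre+ MPTP mice, and the part of these cells in the value was not tested. Ttr, encoding transthyretin, had a log2 fold change of -1.72 (edgeR adjusted p = 0.489). Among 15 paralogs of the members, 9 passed the filter and 1 was called, Cd109, a membrane relative of A2m, which rose by 1.88 (SE 0.282, edgeR adjusted p = 0.0029) in Cre- mice and was lower in Cre+ mice after MPTP by -1.67 (adjusted p = 0.0113). Steap3, a relative of Steap4, had -0.72 (edgeR adjusted p = 0.322). The median of the 9 paralogs was -0.01.

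Of 15 receptors and partners of the members' proteins, 4 rose and 1 fell with MPTP in Cre- mice. Fpr2, a receptor for serum amyloid A, rose by 2.83 (SE 0.512, edgeR adjusted p = 0.00828), and Tlr2, which can also sense serum amyloid A, by 2.35 (0.00363). Hmox1, the heme-degrading enzyme, rose by 0.94 (edgeR adjusted p = 0.00665), and Mmp9, a protease that binds lipocalin 2, by 1.48 (0.0493). Slc40a1, encoding the iron exporter ferroportin whose exported iron ceruloplasmin oxidizes, went the other way. It had 13.3 to 14.4 CPM in Cre- Saline and 10.6 to 13.7 CPM in Cre+ Saline mice, 1.63, 4.48 and 3.96 CPM in Cre- MPTP mice and 8.13, 10.97, 10.2 and 11.8 CPM in Cre+ MPTP mice. The Cre- MPTP mice lay below all others, and in Cre- mice the log2 fold change was -1.99 (SE 0.288) with an edgeR adjusted p of 0.00253. Slc40a1 was the 1 related gene higher in Cre+ than Cre- mice after MPTP, by 1.57 (SE 0.274, edgeR adjusted p = 0.0172), while Fpr2, Tlr2 and Hmox1 were lower.

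Of the 15 inducing cytokines and receptors, 12 passed the filter and 5 were called higher in Cre- mice, with Tnf among the 5. Tnfrsf1a, the main TNF receptor, rose by 2.13 (SE 0.303, edgeR adjusted p = 0.00245), from 13.2 to 15.4 CPM in Cre- Saline to 102, 43.1 and 42.0 CPM in Cre- MPTP mice. It had 14.5, 20.9, 15.1 and 17.8 CPM in Cre+ MPTP mice, lower by -1.87 (edgeR adjusted p = 0.00907). The receptor genes Osmr, Il1r1 and Il6ra rose by 2.63 (edgeR adjusted p = 0.00521), 1.57 (0.034) and 1.30 (0.00257). Il6ra was also lower in Cre+ than Cre- mice after MPTP, by -0.81 (edgeR adjusted p = 0.0394). Tnf itself was called higher (edgeR adjusted p = 0.0351) on 45 counts over the Cre- MPTP group against 2 over the Cre- Saline group, and had 22 counts over the Cre+ MPTP and 0 over the Cre+ Saline group. Tnf was not called by DESeq2 or when any Cre- Saline mouse was left out, and it fell under the count filter without Cre- MPTP mouse 2 or 3. Whether Tnf could be tested thus depended on mice of the group in which it was highest, so nothing is read from its call.

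The 9 transcription factors and feedback inhibitors all passed the filter, and 5 rose in Cre- mice while 6 were lower in Cre+ mice after MPTP. Stat3 had 48.9 to 63.9 CPM in the saline mice, 138, 133 and 114 CPM in Cre- MPTP and 61.9, 85.6, 62.5 and 73.5 CPM in Cre+ MPTP mice. It rose by 1.17 (SE 0.156, edgeR adjusted p = 0.00185) in Cre- mice. Socs3, the STAT3-induced inhibitor of cytokine receptors, rose by 4.64 (SE 0.718, edgeR adjusted p = 0.00338), with 100.3, 26.9 and 28.1 CPM in Cre- MPTP against 1.31 to 2.62 CPM in Cre- Saline mice. Cebpd, a C/EBP factor of the acute phase, had 363.5, 31.1 and 30.1 CPM in Cre- MPTP and 3.66, 12.1, 3.90 and 4.88 CPM in Cre+ MPTP mice. Its log2 fold change in Cre- mice was 4.79 (SE 0.922, edgeR adjusted p = 0.0119), and 2.59 without mouse 1. Cebpd was not called in Cre- mice by DESeq2 or when any Cre- Saline mouse was left out. The NF-kappaB inhibitors Nfkbia and Nfkbiz rose by 2.49 (edgeR adjusted p = 0.00839) and 1.83 (0.00217). Without Cre- MPTP mouse 1, Socs3 had 3.74 and Nfkbia 1.70. Cebpa and Cebpb had 2.63 (edgeR adjusted p = 0.0627) and 3.86 (0.104), and Rela and Nfkb1, subunits of NF-kappaB itself, had 0.26 (0.492) and 0.15 (0.652). After MPTP, Cebpd (-4.53, edgeR adjusted p = 0.0182), Socs3 (-3.19, 0.0231), Cebpa (-2.80, 0.044), Nfkbia (-2.41, 0.0154), Nfkbiz (-1.49, 0.0115) and Stat3 (-0.86, 0.0147) were lower in Cre+ than Cre- mice. Cre- MPTP mouse 1 weighed on several of these, and without it the genotype difference was -2.34 for Cebpd, -2.29 for Socs3, -1.63 for Nfkbia and -0.98 for Cebpa. Without Cre+ MPTP mouse 2 the difference was -3.89 for Socs3. DESeq2 did not make the genotype calls of Cebpd and Cebpa. The edgeR call was lost without Cre+ MPTP mouse 1, 3 or 4 for Cebpd, and without any single Cre+ MPTP mouse for Cebpa. Cebpd, Stat3, Cebpa and Il6ra share exon bases with a gene on the opposite strand, as do Cebpb and, named elsewhere in the text, Cxcl10, Il1b and P2ry12. Cfb, Fpr2 and Trf share them with a gene on their own strand. Some reads of all these genes could belong to the neighbor.

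**Figure D3:**
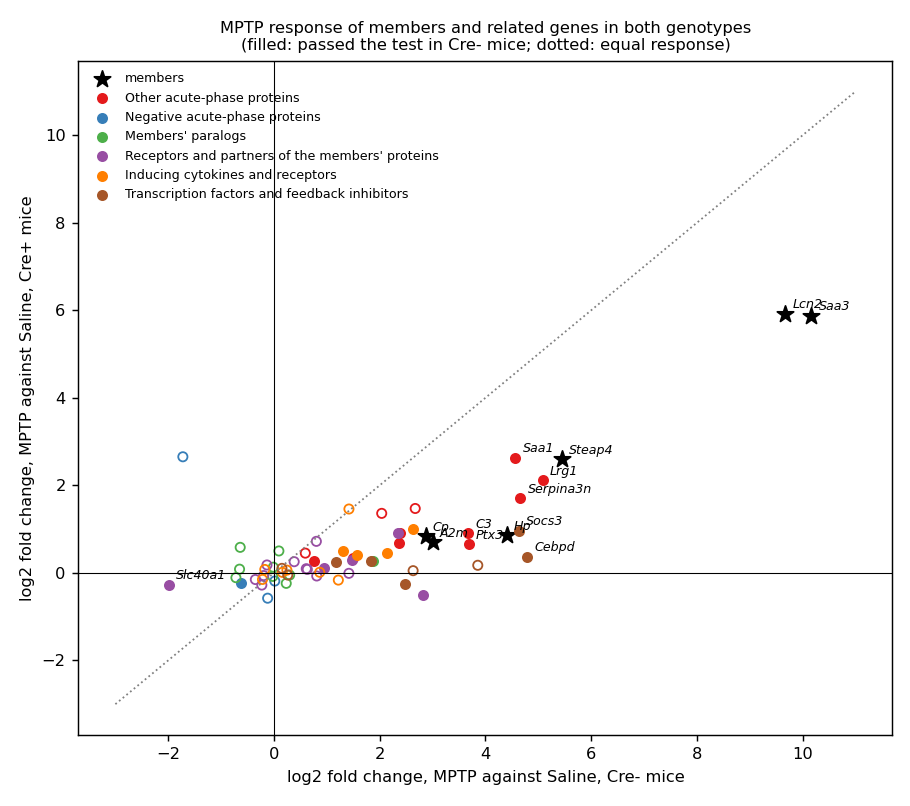
Log2 fold change with MPTP in Cre+ mice (vertical axis) against that in Cre- mice (horizontal axis) for 6 members and 60 related genes, with filled points for genes called in Cre- mice and a dotted line where both responses are equal. Genes with 3 counts or fewer over a saline group are left out, and the members lie far to the right and below the line, with Lcn2 at 9.67 and 5.93.

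Of 13 genes that mark reactive astrocytes of all kinds, 3 of them members (Lcn2, Steap4 and Cp), 10 rose in Cre- mice and 7 were lower in Cre+ mice after MPTP. Of those 7 calls, that of Gfap held with any 1 library of the 2 MPTP groups left out. The other 6 (Lcn2, Cp, Serpina3n, Timp1, Hspb1 and Aspg) were lost without Cre+ MPTP mouse 3, and all 7 ended when the 2 MPTP groups were fitted alone. Gfap, the astrocyte intermediate filament, had 292 to 363 CPM in Cre- Saline and 3171, 1242.5 and 1623 CPM in Cre- MPTP mice, a log2 fold change of 2.60 (edgeR adjusted p = 0.00202). It had 385, 655, 331 and 378 CPM in Cre+ MPTP mice. Timp1 rose by 4.84 (edgeR adjusted p = 0.00257), Hspb1 by 4.16 (0.0118), Cxcl10 by 3.99 (0.0048) and Aspg by 3.20 (0.0025). Without Cre- MPTP mouse 1, Hspb1 had 2.37 and Aspg 2.60, and without Cre- MPTP mouse 2, Cxcl10 had 3.38. Hspb1 lost its call when any Cre- Saline mouse was left out. Vim, Cd44 and S1pr3 were not called in Cre- mice, with log2 fold changes of 1.39 (edgeR adjusted p = 0.267), 1.103 (0.211) and 0.34 (0.536).

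Markers of other cells that make these proteins were summed in each library. The 10 neutrophil markers summed to 10.9 to 68.0 CPM in Cre- MPTP and 0.687 to 4.14 CPM in Cre+ MPTP mice, against 0.119 to 1.53 CPM in Cre- Saline and 0.488 to 4.19 CPM in Cre+ Saline mice, and so were highest in the group in which the members were highest. Within the Cre- MPTP group the order differed, since mouse 3 had 68.0 CPM of neutrophil markers and mouse 1, the highest for Lcn2 and Hp, had 16.1 CPM. Cre+ MPTP mouse 2 was the highest of its group for these markers too. S100a8 had 41 to 564 counts per Cre- MPTP library and at most 17 in any other library, and S100a9 had 47 to 799 and at most 31. Retnlg (14 to 155 counts) and Mmp8 (21 to 224) reached the count filter in enough libraries only through the Cre- MPTP mice, so the calls of neutrophil markers are not counted. The granule gene Elane was at 0 in 1 of the 3 Cre- MPTP mice and in all 4 Cre+ MPTP mice, and Ly6g was at 0 in 2 of the 3 Cre- MPTP mice. The part of neutrophils in the members' levels was not tested. The hepatocyte marker Alb had 0 or 1 count in every library, and the 5 hepatocyte markers summed to at most 2.77 CPM. The 5 meningeal fibroblast markers summed to 118 to 135 CPM in Cre- MPTP mice against 68.3 to 97.3 CPM in saline and 45.8 to 116 CPM in Cre+ MPTP mice. They did not rise as a set in Cre- mice, where 3 of the 5 had a log2 fold change above 0 and the median was 0.095. Of the 5, 1 was called higher in Cre- mice, Dcn, and the part of these cells was not tested either. Erythrocyte markers summed to 9.86 to 14.6 CPM in Cre- MPTP and 1.51 to 81.6 CPM in Cre+ MPTP mice, and choroid plexus markers to 20.8 to 36.2 CPM over all libraries. The pericyte sums moved against the members, though 0 of the 4 pericyte markers were called in Cre- mice. The 4 pericyte markers summed to 61.6, 144 and 113 CPM in Cre- MPTP mice, below the 147 to 252 CPM of all other libraries. The 5 microglia markers summed to 148 to 210 CPM in Cre- MPTP mice, against 202 to 237 CPM in saline and 205 to 273 CPM in Cre+ MPTP mice, so the ranges overlapped. Of the 5, 1 was called lower in Cre- mice, the homeostatic marker P2ry12, and 4 were not called. P2ry12 had 2.49, 3.41 and 3.57 CPM after MPTP against 18.5 to 25.95 CPM with saline in Cre- mice (edgeR adjusted p = 0.000104). It had 12.7 to 15.3 CPM in Cre+ MPTP mice. The part of these cells in the members' levels was not tested.

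**Figure D4:**
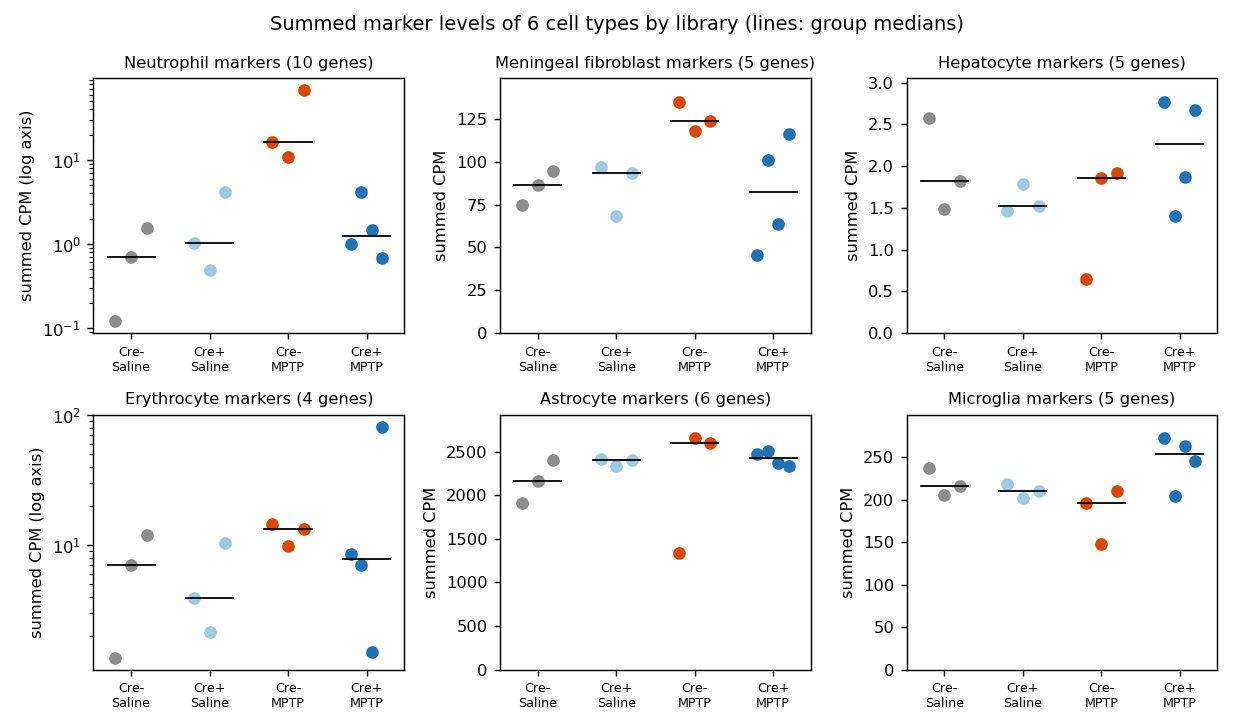
Summed CPM of the markers of 6 cell types in every library, 1 point per mouse, with lines at the group medians; the neutrophil and erythrocyte panels have a log axis and the others a linear axis from 0. The Cre- MPTP neutrophil sums of 10.9 to 68.0 CPM lie above all other groups, and Cre- MPTP mouse 1 has the lowest astrocyte sum, 1344 CPM.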

How the data were processed

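Midbrain total RNA of 13 mice was sequenced from stranded libraries as paired reads. The authors trimmed reads with Trimmomatic 0.36, aligned them to GRCm38 with STAR 2.5.2b and counted them per gene with featureCounts of Subread 1.5.2, and the deposited values are raw whole-number counts per Ensembl gene. Whether counting used strand is not given in the sources used here. Of 49315 genes, 48970 were given a symbol from the GRCm38 annotation and 345 were not; no per-sample column was left out. Groups came from the genotype and treatment labels.

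The 19360 genes that reached 10 counts in 3 or more libraries were tested with edgeR 4.0.16 in R 4.3.3 by the quasi-likelihood test, with TMM scaling, a term for each of the 4 groups and Benjamini-Hochberg adjustment over all genes in each of 5 contrasts. Calls are at an adjusted p under 0.05. CPM use TMM-scaled library sizes, and log2 CPM a prior count of 2. The scripts were tested on simulated data. Replicates were distinct animals, and all replicate pairs differed by more than counting noise. The chi-square per degree of freedom was 318 for both pairs with Cre- MPTP mouse 1, and 6.77 to 42.7 for all other pairs. At depths of 11489150 to 29397278 counts, 3 counts equal 0.0990 to 0.325 CPM.

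The 7 members and the gene lists were chosen with earlier results of these data known. Named genes were the members, each related gene called in any contrast, the 2 with the largest change with MPTP in Cre- mice in each list, and the genes most like Lcn2 (5), Saa3 (5) and the members' mean (10). Rela, Nfkb1, Saa2, Cebpb, Vim, Cd44, S1pr3, S100a8, S100a9, Retnlg, Mmp8, Dcn and P2ry12 were named outside this rule after their values were seen. Alternatives were DESeq2 1.42.0, limma 3.58.1 voom with quality weights, size factors by relative log expression (RLE), no count filter, the 2 groups alone, a replicate block and leaving out each library. Each library was left out only for the contrasts that hold its group. Leaving out Cre- MPTP mouse 1 and Cre+ MPTP mouse 2 together was added after seeing the data.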

Additional observations from a re-analysis of the deposited data

Results flagged for a closer look

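In the Cre+ MPTP group, the only group with 4 mice, 19 quantities (the 7 members and 12 marker sums) were checked for a mouse far from the other 3, and such a check picks out about 1 in 20 groups by chance. Lcn2 was at 153 CPM in mouse 2, and its gap to the next mouse was 0.924 of the group's range, above Dixon's critical value for 4 samples. Saa3 was at 66.7 CPM in mouse 2, with a gap of 0.943 of the range. Cp and A2m were also highest in mouse 2, with gaps of 0.827 and 0.806 that did not pass. The pericyte markers summed to 252 CPM in mouse 4, with a gap of 0.831 of the range, and the erythrocyte markers to 81.6 CPM in mouse 4, with a gap of 0.912. The members were not highest in mouse 4.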

How the results depend on the processing

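In Cre- mice, 7 members were called with MPTP, and 5 to 7 over the alternatives. Of the related genes 26 were called, 24 by DESeq2, 36 by limma voom, 9 with the 2 groups alone and 16 to 33 with 1 library left out. In Cre+ mice, 0 members were called, against 3 by DESeq2, 1 by limma voom, 1 without the count filter, 2 without Cre- MPTP mouse 1 and Cre+ MPTP mouse 2, and 0 to 1 with 1 library left out; related genes went from 0 to 3 by limma voom and 2 without both mice. Between genotypes after MPTP, 4 members and 19 related genes were called. Members were 7 by limma voom, 0 with the 2 groups alone, 7 without both mice and 0 to 7 with 1 library left out, and related genes were 21 by DESeq2, 28 by limma voom, 0 with the 2 groups alone and 2 to 26 with 1 library left out. The replicate block, with the mouse number as a term, left 0 members and 0 related genes called between genotypes. Mouse numbers are a name and pair no animals in the labels, and deviations from the group means of same-numbered mice had correlations of -0.125 to 0.184, above 0.1 in 3 of 12 pairs. For the interaction, 0 members and 0 related genes were called, against 3 and 12 by DESeq2, 4 and 20 by limma voom, 5 and 18 without both mice, and 0 to 4 and 0 to 6 with 1 library left out. Under saline, 0 of either were called in every alternative run. The cause of these shifts was not tested, and the fits that leave mice out also hold fewer mice.

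Over all genes, calls in Cre- mice were 616 by edgeR, 1137 by DESeq2, 2624 by limma voom, 110 with the 2 groups alone, 1987 without both mice and 311 to 1812 with 1 library left out. In Cre+ mice they were 0, 83, 294, 15, 141 and 0 to 5, and 9 without the count filter. Between genotypes after MPTP they were 299, 834, 1224, 0, 757 and 41 to 1826, and 0 under the replicate block. Under saline they were 0 by edgeR, 2 by DESeq2, 3 by limma voom and 6 with the 2 groups alone. For the interaction they were 2 by edgeR, 223 by DESeq2, 689 by limma voom, 409 without both mice, 0 under the block, 1 with RLE scaling, 10 without the filter and 0 to 199 with 1 library left out. At these depths Slc10a6, and Saa3 and Hp with saline, rest on few counts, so their fold changes are imprecise.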

Other observations

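Of the 84 related genes, 22 were under the count filter, and a few of them, named here after their values were seen, had counts mainly in Cre- MPTP mice. Il6, the main inducer of the acute phase, had 1, 51 and 47 counts in Cre- MPTP mice, 1 and 2 counts over the Cre- Saline and Cre+ Saline groups, and 0, 6, 0 and 0 counts in Cre+ MPTP mice. Il1b had 7, 37 and 49 counts in Cre- MPTP mice, 7, 7, 7 and 4 counts in Cre+ MPTP mice, and 10 and 6 counts over the saline groups. Crp, encoding C-reactive protein, had 0, 5 and 25 counts in Cre- MPTP and 0, 4, 1 and 0 in Cre+ MPTP mice. Fga, encoding a fibrinogen chain, had 7, 15 and 9 counts in Cre- MPTP and 0, 3, 0 and 0 in Cre+ MPTP mice, and Saa4, another serum amyloid A, had 1, 11 and 12 counts against 0, 4, 0 and 0. In the Cre+ MPTP group, mouse 2 held most or all of the counts of Il6, Crp, Fga and Saa4, and these counts were not tested. Apcs and Serpina6 had 0 counts in all 13 libraries.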
